A study of Arabidopsis thaliana with 20 samples.

Results

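A set of 201 genes of Arabidopsis thaliana was higher in each of 10 root tip libraries labelled elongation zone (EZ) than in each of 10 libraries labelled meristematic zone (MZ). The deposited table lists 33201 genes, of which 22335 had at least 1 FPKM in at least 2 libraries and are called tested genes here. FPKM, a count of fragments scaled by the transcript's length and the library's mapped fragments, is a level per length. A gene was taken as a member where its lowest EZ value lay above its highest MZ value. Such complete separation held for 207 genes, 0.927% of the tested genes, and 6 of these are left out of the set by identifier. The opposite separation, with every EZ value below every MZ value, held for 31 genes. The zone difference chose the members, so the members were selected on the same FPKM values of these 20 libraries and their levels in the zones are given as a description, with no test.

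All libraries came from 1 genotype, PET111:GFP in the Col-0 background, whose GFP marks the columella (the central root cap). Roots of 3, 4, 5, 6 and 7 day old seedlings, grown on medium with sucrose, were cut, protoplasts were made and sorted, and GFP-negative cells were kept. Each zone and age had 2 biological replicates, so 10 EZ libraries and 10 MZ libraries were compared, and no treatment or mutant was included. Removal of the columella rests on the expression domain of this 1 reporter, and each library is a mixture of all the remaining root tip cell types. In such bulk samples, fewer cells of a type and less RNA per cell cannot be told apart.

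The markers of dividing and elongating cells went against the zone labels. The summed level of 8 genes of dividing cells, 1 of which (CDKB2;2) is itself a member, was 30.2 FPKM at lowest, 103 at the median and 167 at highest in the EZ libraries, against 10.3, 35.0 and 62.6 FPKM in the MZ libraries. The summed level of 8 cell wall genes of elongating cells was 424, 672 and 834 FPKM in the EZ libraries, against 779, 942 and 1232 FPKM in the MZ libraries. Dividing cells are by definition those of the meristematic zone, so both lists lay opposite to the names of the zones. The zone names are therefore used below only as labels: "EZ" stands for the libraries labelled EZ and "MZ" for those labelled MZ. The summed level of 5 root cap genes was 199, 371 and 1036 FPKM in EZ and 478, 981 and 1667 FPKM in MZ, which goes with the labels, since the root cap surrounds the meristem. Root hair genes (6) summed to a median of 254 FPKM in EZ and 435 FPKM in MZ, and endodermis genes (6) to 839 and 1057 FPKM. Xylem genes (5) summed to 83.4 and 149 FPKM, and phloem genes (5) to 25.5 and 18.0 FPKM. Root hair, endodermis and xylem medians were thus also higher in MZ, but the ranges of the zones overlapped, and these lists are not read for or against the labels. Of the 7 lists, no gene was listed at 0 in every library. The part of these cell types in the levels of the members was not tested. Depth, recovered approximately from the spacing of low FPKM values, was 12.8 to 49.8 M fragments in EZ and 4.13 to 24.2 M fragments in MZ.

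A dividing plant cell duplicates its ribosomes, chromatin and organelles in each cycle, and its largest single outlay is the ribosome, whose proteins and assembly factors are made in proportion to growth. In plants, promoters of ribosomal protein genes and of many other growth genes often carry the telo box, a short repeat that resembles the plant telomere, and site II elements, which are recognised by TCP transcription factors. Cytosolic chaperones fold the new proteins, importins and the Ran cycle carry ribosomal proteins and histones into the nucleus, and mitochondria and plastids make ribosomes of their own.

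Promoters of 4 members, each an abundant or strongly different gene with the elements just named, show how these lie before the start of transcription. The sequences run 5′ to 3′ on the strand of the gene, cover the 150 bases before the annotated transcript start, and were read from the RefSeq genome of build TAIR10.1. Capitals mark telo boxes (AAACCCTA) and site II elements (TGGGCC or TGGGCT), searched on both strands, so that TAGGGTTT and GGCCCA are the same elements read from the other strand.
AT2G36160: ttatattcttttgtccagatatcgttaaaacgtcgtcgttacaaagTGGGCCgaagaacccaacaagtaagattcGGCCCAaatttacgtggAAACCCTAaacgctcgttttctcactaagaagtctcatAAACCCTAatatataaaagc
AT3G02560: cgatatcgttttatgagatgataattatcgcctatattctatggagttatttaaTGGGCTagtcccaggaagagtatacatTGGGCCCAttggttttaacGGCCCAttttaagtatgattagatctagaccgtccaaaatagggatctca
AT1G10490: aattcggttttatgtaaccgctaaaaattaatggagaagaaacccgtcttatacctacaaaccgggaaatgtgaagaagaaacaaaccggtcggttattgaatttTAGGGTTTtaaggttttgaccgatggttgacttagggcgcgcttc
LOS1: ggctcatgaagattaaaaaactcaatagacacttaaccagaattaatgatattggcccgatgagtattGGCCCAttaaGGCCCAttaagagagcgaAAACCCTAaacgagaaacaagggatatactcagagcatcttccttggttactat

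The window of AT2G36160, a cytosolic ribosomal protein gene, lies at chr2:15169668-15169817 on the plus strand. It holds site II elements whose first bases lie at -104 and -75, and telo boxes at -58 and -20. AT3G02560, a ribosomal protein S7e gene, has its window at chr3:541558-541707 on the plus strand. There site II elements begin at -96, -69, -67 and -50, and those at -69 and -67 overlap in 1 palindrome, TGGGCCCA. The window of AT1G10490, which is described as a GNAT acetyltransferase and grouped here with ribosome assembly, lies at chr1:3453041-3453190 on the plus strand and holds a telo box at -45 and no site II element. LOS1 (AT1G56070), translation elongation factor 2, has its window at chr1:20971743-20971892 on the minus strand, with site II elements at -82 and -72 and a telo box at -54.

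Members ranged over most of the expression scale and leaned to its upper end. Their mean level in EZ had a median of 34.1 FPKM, against 12.1 FPKM in MZ, and the median EZ level of all tested genes was 7.86 FPKM. A mean of at least 100 FPKM in EZ was found for 51 members and a mean under 5 FPKM for 18. The share of tested genes that were members was 0.204% among those with a mean under 2 FPKM over all libraries and 2.70% among those at 100 FPKM or more. The members together took 2.43% to 4.09% of all FPKM in the EZ libraries and 0.988% to 1.79% in the MZ libraries.

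The fold between the zones was moderate for most members and the separation narrow. Mean EZ over mean MZ had a median of 3.16 over members and of 1.16 over tested genes, and was at least 2 for 165 members, at least 4 for 45 and under 2 for 35. The lowest fold was 1.37. The remaining member, AT2G13280, an uncharacterized protein, was listed at 0 in all 10 MZ libraries and at 0.0463 to 2.99 FPKM in EZ, so it has no fold. On the log2(FPKM + 1) scale, EZ minus MZ had a median of 1.44 over members, against a shift of 0.15 over all tested genes. The lowest EZ value exceeded the highest MZ value by a median factor of 1.11, by under 1.1 for 92 members, and by at least 1.5 for 4 members, counting AT2G13280. Just inside the rule were AT4G08790 (a nitrilase family protein, 5.340 FPKM lowest in EZ against 5.337 FPKM highest in MZ), AT5G11480 (8.18 against 8.17 FPKM) and AtNug2 (25.24 against 25.20 FPKM). Just outside were AT1G20410 (5.70 against 5.71 FPKM), PDCB3 (2.368 against 2.374 FPKM) and AT4G32915 (19.7 against 19.8 FPKM).

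**Figure D1:**
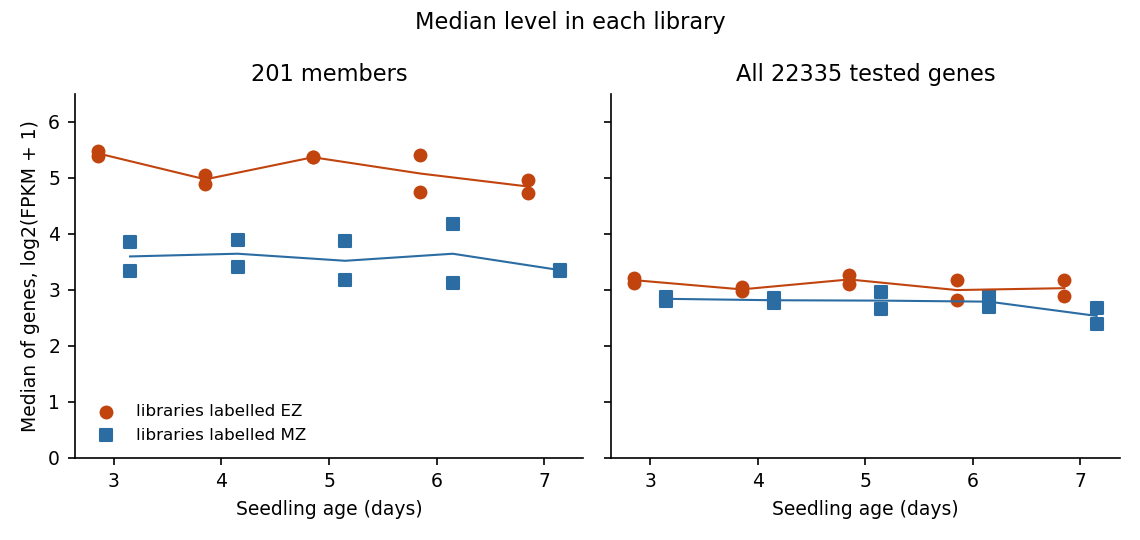
Median log2(FPKM + 1) of the 201 members (left) and of all 22335 tested genes (right) in each library, against seedling age in days; circles are libraries labelled EZ, squares those labelled MZ, and lines join the mean of the 2 libraries of an age. The members' medians lie at 4.72 to 5.48 in EZ and 3.11 to 4.17 in MZ, while those of all tested genes lie at 2.81 to 3.26 in EZ and 2.39 to 2.96 in MZ.

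A few libraries set the boundary. The highest MZ value of a member came from MZ day 6 replicate 2 for 96 members, from MZ day 3 replicate 1 for 28, MZ day 5 replicate 2 for 24 and MZ day 4 replicate 2 for 22. The lowest EZ value came from EZ day 7 replicate 2 for 62 members, EZ day 6 replicate 2 for 41, EZ day 4 replicate 1 for 37 and EZ day 7 replicate 1 for 29. The members' median log2(FPKM + 1) was 4.72 in EZ day 7 replicate 2, the lowest of the EZ libraries, and 4.17 in MZ day 6 replicate 2, the highest of the MZ libraries. Dividing cell markers summed to 38.9 FPKM in EZ day 7 replicate 2 and 36.2 FPKM in EZ day 6 replicate 2, both inside the range of the MZ libraries, and to 43.9 FPKM in MZ day 6 replicate 2. Root cap markers summed to 839 FPKM and 1036 FPKM in those EZ libraries, also inside the MZ range. EZ day 4 replicate 1 went the other way, with dividing cell markers at 94.6 FPKM, above every MZ library, and root cap markers at 199 FPKM, the lowest of all libraries. In EZ day 7 replicate 1 the sums were 62.0 and 380 FPKM. The lowest dividing cell sum in EZ, 30.2 FPKM, was that of EZ day 4 replicate 2, which set the boundary for 22 members. Its root cap markers summed to 275 FPKM, below every MZ library. The highest dividing cell sum in MZ, 62.6 FPKM, was that of MZ day 5 replicate 2. Root cap markers in MZ day 6 replicate 2 summed to 1667 FPKM, the highest of all libraries. The part of these libraries' composition in the boundary was not tested.

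Without MZ day 6 replicate 2, 570 genes met the separation rule, against 201 with all libraries. Without EZ day 6 replicate 2 the number was 353 and without EZ day 7 replicate 2 it was 315. Leaving out any other library gave 202 to 255 genes. A gap between the zones cannot narrow when a library is left out, so apart from genes lost to the FPKM filter this number could only hold or rise. The scaling between libraries also decided which genes were members. After quantile normalisation 176 genes were separated, of which 126 were among the 201, and after median-of-ratios scaling 178, of which 149 were among them. Under both scalings 110 members stayed separated. These 110 held 21 of 24 cytosolic ribosomal proteins, 12 of 12 translation factors and 5 of 6 ribosome assembly genes, but 1 of 11 genes of replication and cell division and 8 of 22 of chromatin and transcription.

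**Figure D2:**
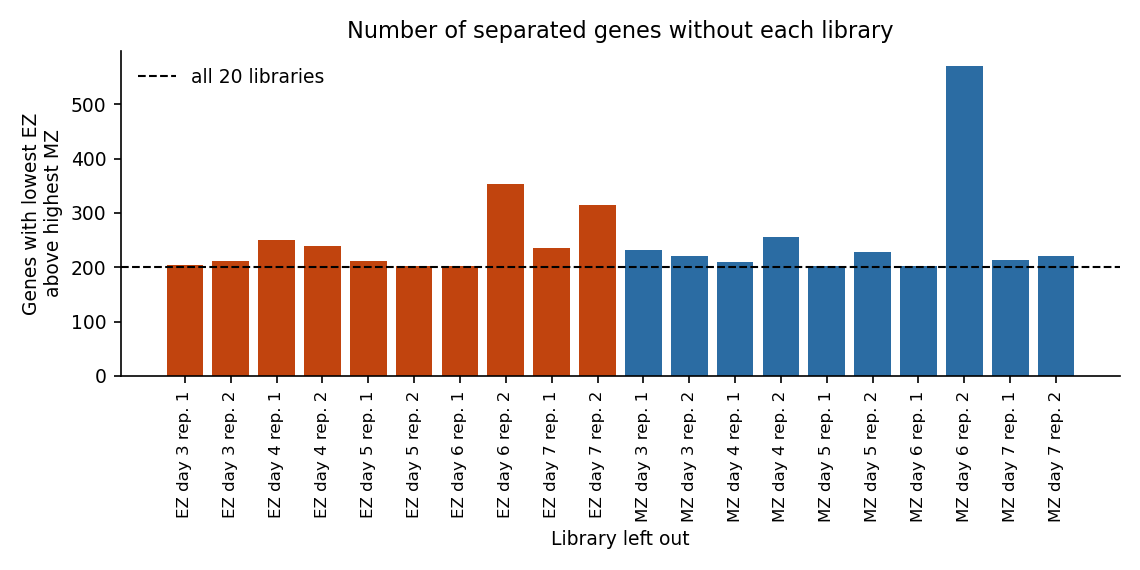
Number of genes whose lowest EZ value lies above their highest MZ value when the library named on the horizontal axis is left out; the dashed line is the number with all 20 libraries (201). The bar for MZ day 6 replicate 2 reaches 570, those for EZ day 6 replicate 2 and EZ day 7 replicate 2 reach 353 and 315, and the others lie between 202 and 255.

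The members were sorted into roles by their product descriptions. The largest described roles were cytosolic ribosomal proteins (24 members), primary metabolism (24), chromatin and transcription (22), RNA processing and binding (17), and gene expression and import of mitochondria and plastids (16). Translation factors (12), replication and cell division (11), protein folding (10), ribosome assembly (6), nuclear transport (4) and protein turnover (4) followed, and 51 members had another role or none described. Median folds of the roles ran from 2.09 for primary metabolism to 3.82 for ribosome assembly.

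**Figure D3:**
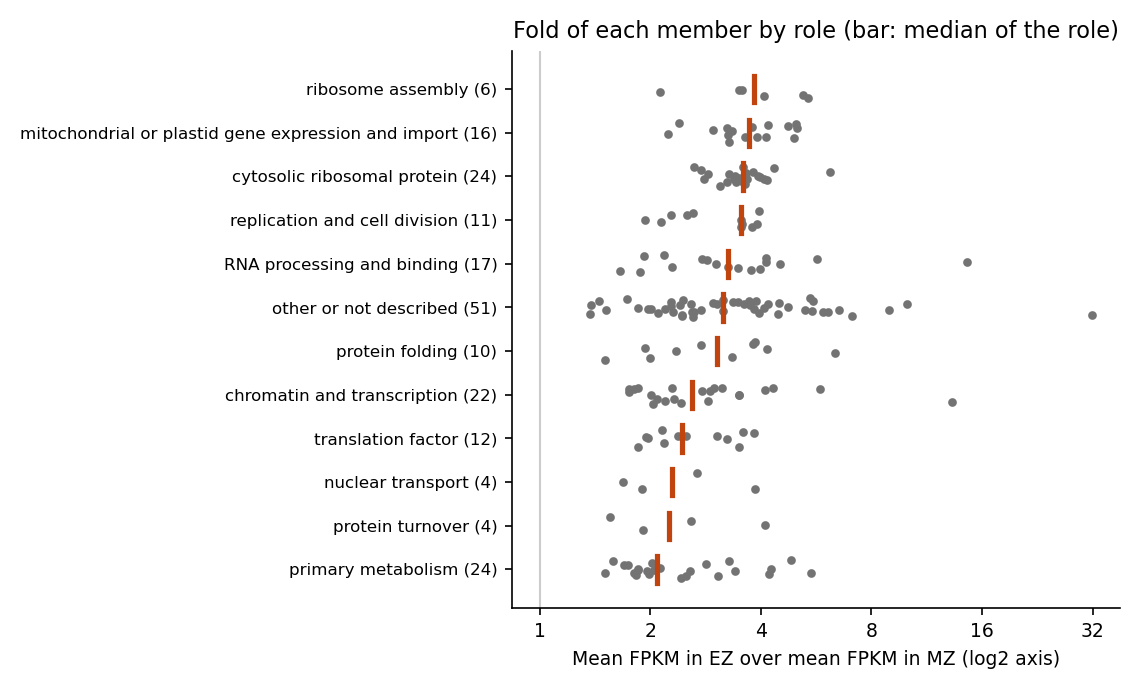
Mean FPKM in EZ over mean FPKM in MZ for the 200 members that have a fold, on a log2 axis, by role with the number of members in brackets; bars are the median of each role. The medians run from 2.09 (primary metabolism) to 3.82 (ribosome assembly), and the 3 folds above 10 belong to members under 3 FPKM.

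Cytosolic ribosomal proteins were the most abundant role, with a median EZ level of 314 FPKM and a median MZ level of 113 FPKM, and their folds ran from 2.64 to 6.17. The highest was AT4G18100, ribosomal protein L32e, at 871 FPKM lowest, 1232 at the median and 1687 at highest in EZ, against 196, 317 and 811 FPKM in MZ. AT1G67430, of the L22p/L17e family, had a median of 1065 FPKM in EZ and 332 FPKM in MZ, and 12.1% of its exonic length lies under a gene on the opposite strand. RPS6, the small subunit protein phosphorylated downstream of TOR, had 640, 908 and 1295 FPKM in EZ, against 187, 273 and 557 FPKM in MZ. In all 3, the lowest EZ library was within a factor of 1.15 of MZ day 6 replicate 2, and the medians lay much farther apart.

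The ribosomal proteins with the widest gaps were not the most abundant ones. RPS15A had 186, 279 and 339 FPKM in EZ, against 46.3, 64.8 and 133 FPKM in MZ. AT3G02560 had 182, 272 and 377 FPKM in EZ, against 41.0, 63.7 and 133 FPKM in MZ. For RPS15A the lowest EZ value was 1.41 times the highest MZ value and for AT3G02560 1.37 times. AT2G36160, whose promoter is printed above with that of AT3G02560, had 281, 494 and 646 FPKM in EZ, against 71.4, 97.5 and 276 FPKM in MZ, so its zones nearly met. Some families contributed more than 1 gene: the S7e genes AT3G02560 and AT1G48830 (297 FPKM mean in EZ, 106 in MZ), the L29 genes AT3G09500 (712 and 219 FPKM) and AT3G55170 (92.9 and 25.3 FPKM), and RPS15A with RPS15AD (197 and 51.9 FPKM). AT3G02560, RPS15A and RPS15AD share at most 8.51% of their 32-base words with other transcripts.

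The 6 ribosome assembly members had a median EZ level of 30.8 FPKM and folds from 2.12 to 5.37. TOZ, a WD-40 protein of the small subunit processome, had 9.50, 20.05 and 31.1 FPKM in EZ, against 0.97, 2.57 and 8.88 FPKM in MZ. AT1G10490 had 7.76, 18.1 and 27.6 FPKM in EZ, against 0.58, 3.08 and 6.43 FPKM in MZ, the largest fold of the role at 5.37. NMD3, the export adaptor of the large subunit, had 40.8, 66.9 and 82.9 FPKM in EZ, against 21.2, 28.4 and 40.0 FPKM in MZ. AT5G06360, of the S8e family, was the most abundant at a median of 148 FPKM in EZ and 24.1 FPKM in MZ. AtNug2, a nucleolar GTPase, and AT4G02400, a U3 ribonucleoprotein component, had folds of 3.49 and 3.56.

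Among translation factors, LOS1 combined a high level with a wide gap. Its EZ values were 841 and 821 FPKM at day 3, 558 and 579 at day 4, 821 and 722 at day 5, 872 and 505 at day 6, and 523 and 423 at day 7. Its MZ values in the same order were 194 and 144, 232 and 196, 214 and 265, 183 and 305, and 228 and 237 FPKM. No EZ value came below 423 FPKM and no MZ value above 305 FPKM, and the mean difference was smallest at day 7, at 1.01 log2 units. Subunits of elongation factor 1B followed: AT2G18110 had 122, 146 and 186 FPKM in EZ against 60.5, 74.5 and 90.35 FPKM in MZ, and the gamma chain AT1G57720 had a median of 229 FPKM in EZ and 98.8 FPKM in MZ. NACA3, which binds nascent chains at the ribosome, had a median of 240 FPKM in EZ and 87.7 FPKM in MZ. PAB8, a poly(A) binding protein, had a mean of 114 ± 35.6 FPKM in EZ and 29.6 ± 11.2 FPKM in MZ (SD, n = 10 each), the largest fold of the role at 3.84.

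Protein folding held the member with the widest gap of the whole set. CCT6B, a subunit of the cytosolic chaperonin that folds tubulin and actin, had 57.2 and 53.8 FPKM at day 3, 33.2 and 49.6 at day 4, 59.8 and 66.2 at day 5, 60.3 and 35.6 at day 6, and 35.9 and 33.7 at day 7 in EZ. In MZ it had 13.2 and 7.8, 11.9 and 16.7, 11.7 and 11.8, 9.6 and 17.4, and 11.7 and 16.0 FPKM. Its lowest EZ value was 1.91 times its highest MZ value, the highest such ratio among members with any MZ signal. CCT7 (median 59.9 FPKM in EZ and 13.5 FPKM in MZ) and CCT5 (113 and 31.9 FPKM), subunits of the same ring, were also among the 12 widest gaps. PFD1, of the prefoldin complex that hands substrates to that ring, had a median of 84.6 FPKM in EZ and 41.3 FPKM in MZ. HSP90.2 had 209, 377 and 553 FPKM in EZ, against 64.0, 79.1 and 150 FPKM in MZ. It shares 28.2% of its 32-base words with other transcripts, most of all with AT5G56010. The HSP70 gene HSC70-1 was the most abundant of the role, at a median of 1377 FPKM in EZ and 572 FPKM in MZ. Its lowest EZ value was 985 FPKM and its highest MZ value 971 FPKM, so its zones nearly met. ROC3, a cyclophilin, had a median of 853 FPKM in EZ and 269 FPKM in MZ.

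**Figure D4:**
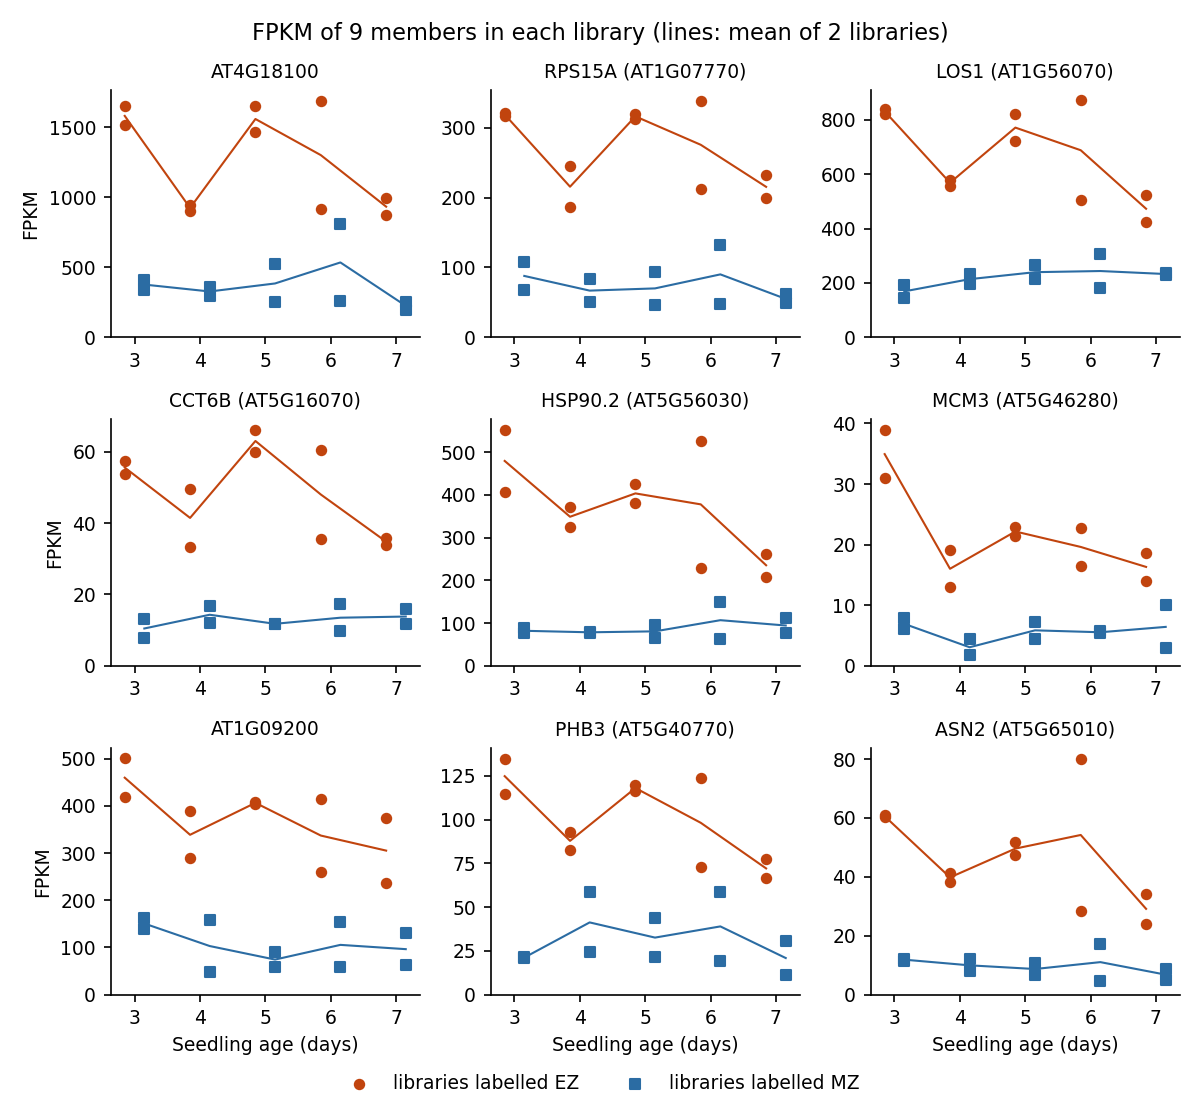
FPKM of 9 members in each library against seedling age in days, with circles for libraries labelled EZ, squares for those labelled MZ and lines through the mean of the 2 libraries of an age. CCT6B has the widest gap, with EZ values from 33.2 FPKM and MZ values up to 17.4 FPKM, and the highest MZ point of 7 of the 9 genes is MZ day 6 replicate 2.

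Replication and cell division was a role of low levels. MCM3 and MCM7, subunits of the replicative helicase, had medians of 20.3 and 18.4 FPKM in EZ, against 5.55 and 4.43 FPKM in MZ, with highest MZ values of 9.97 and 8.18 FPKM. CYCA3;2, a cyclin of S phase, had 13.9, 25.7 and 39.2 FPKM in EZ, against 2.28, 6.36 and 11.5 FPKM in MZ. CDKB2;2, a mitotic kinase, had 4.84, 8.38 and 13.7 FPKM in EZ, against 0.07, 1.87 and 4.75 FPKM in MZ, and 13.8% of its exonic length lies under a gene on the opposite strand. POK1, a kinesin that sets the division plane, had a mean of 2.77 ± 1.03 FPKM in EZ and 0.785 ± 0.395 FPKM in MZ (SD, n = 10 each). HEI10 and SPO11-2, known for their roles in meiosis, had medians of 22.5 and 5.83 FPKM in EZ and 9.35 and 1.54 FPKM in MZ, but each overlaps a neighbouring member. HEI10 has 41.3% of its exonic length under other genes, the member MRD1 among them, and SPO11-2 has 27.6%, in part under the member AT1G63980. The strandedness of the counting is not given in the sources used here, so reads of these overlapping genes cannot be told apart.

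Chromatin and transcription was led by a histone H3 gene. AT1G09200 had 236, 397 and 501 FPKM in EZ, against 47.8, 110 and 162 FPKM in MZ, and the H2A gene HTA2 had 70.4, 109 and 151 FPKM in EZ, against 9.96, 34.7 and 67.7 FPKM in MZ. HD2C, a plant histone deacetylase of the nucleolus, had 49.9, 99.5 and 144 FPKM in EZ, against 14.8, 20.3 and 46.1 FPKM in MZ. MET1, the maintenance DNA methyltransferase, had 4.42, 9.04 and 13.3 FPKM in EZ, against 0.92, 1.91 and 3.63 FPKM in MZ. PRMT1A, an arginine methyltransferase, had the largest fold of those named, 5.78, with medians of 17.3 FPKM in EZ and 2.81 FPKM in MZ. However, 22.2% of its exonic length lies under a gene on the opposite strand, so its level is less certain. HMGB4, a high mobility group protein, and AT4G31880, described as a transcriptional regulator, differed less, with folds of 1.75 and 1.85.

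RNA-binding members included La1, which binds RNA polymerase III transcripts and is known for ribosome synthesis in Arabidopsis, with 50.2, 91.6 and 142 FPKM in EZ, against 5.91, 18.7 and 45.6 FPKM in MZ. GRP2, a glycine-rich cold shock domain protein, had a median of 161 FPKM in EZ and 51.8 FPKM in MZ, RBP47B of 95.3 and 42.6 FPKM, and AT3G25150, an NTF2 family protein, of 40.1 and 13.5 FPKM. Nuclear transport held RANBP1c, a cofactor of the Ran GTPase, at a median of 59.9 FPKM in EZ and 13.7 FPKM in MZ, and the importin beta gene KPNB1 at 33.2 and 20.2 FPKM. AT4G27640, of the same repeat family as importins, had 29.1 and 10.2 FPKM.

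Organelle members had low levels and folds near those of the cytosolic ribosome. PHB3, a prohibitin of the inner mitochondrial membrane, was the most abundant, at 66.5, 104 and 135 FPKM in EZ, against 11.4, 22.8 and 58.8 FPKM in MZ. The organelle-type ribosomal protein genes AT3G01790 (L13 family) and AT3G06320 (L33 family) had medians of 63.5 and 46.4 FPKM in EZ, against 16.1 and 8.64 FPKM in MZ. Of the exonic length of AT3G01790, 33.2% lies under a gene on the opposite strand, so its level is less certain. AT4G02820, a pentatricopeptide repeat protein, had a median of 8.74 FPKM in EZ and 1.75 FPKM in MZ, and emb1211 of 10.6 and 3.07 FPKM. No transcript of either organelle genome was separated in this direction.

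Primary metabolism held the most abundant member and had the smallest median fold of the roles. HOG1, S-adenosylhomocysteine hydrolase, which recycles the by-product of methylation, had 2501, 2893 and 3333 FPKM in EZ, against 1190, 1601 and 1956 FPKM in MZ, a fold of 1.85. ASN2, an asparagine synthetase, had the largest gap of the role, with 23.9, 44.4 and 80.1 FPKM in EZ, against 4.72, 9.61 and 17.3 FPKM in MZ. Nucleotide synthesis was represented by PYRD, which makes orotate, with means of 33.4 ± 12.2 FPKM in EZ and 7.93 ± 4.28 FPKM in MZ, and by CARA, with 53.4 ± 15.4 and 18.8 ± 6.60 FPKM (SD, n = 10 each). Plastid fatty acid synthesis was represented by ACP2 (median 304 FPKM in EZ and 159 FPKM in MZ), KASI (91.1 and 42.4 FPKM) and MOD1 (90.6 and 36.3 FPKM). GLN1.3, a cytosolic glutamine synthetase, had a median of 354 FPKM in EZ and 221 FPKM in MZ. Protein turnover was represented by the cullin ligase subunit RBX1 (109 and 54.6 FPKM), the proteasome subunit PBE1 (134 and 83.9 FPKM) and the ubiquitin activating enzyme UBA 2 (19.0 and 4.32 FPKM).

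Of the 51 members without one of these roles, TUB3, a beta tubulin, had the highest level, with 281, 330 and 362 FPKM in EZ, against 168, 215 and 268 FPKM in MZ. It shares 33.3% of its 32-base words with other transcripts, most of all with a neighbouring tubulin gene. The other high ones were AT5G43460 (median 217 FPKM in EZ and 103 FPKM in MZ) and the selenium-binding protein SBP1 (108 and 79.2 FPKM). The largest gaps were those of AT5G39900 (5.77 and 1.08 FPKM) and AT1G53645 (38.3 and 16.6 FPKM). The largest folds of the whole set rested on values near 0 in MZ: AT3G29779, an uncharacterized protein named here after its values were seen, was listed at 0 in 8 of 10 MZ libraries and had means of 2.46 FPKM in EZ and 0.0769 FPKM in MZ. In all, 15 members were listed at 0 in at least 1 MZ library, and the part of depth in these values was not tested.

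Age is a measure the rule did not use, although no EZ value of a member may fall to its highest MZ value. No member was called for a trend per day in EZ or in MZ, for a trend of the zone difference, or for any age difference within a zone (limma, Benjamini-Hochberg adjusted p under 0.05 over all tested genes). The shares of tested genes called in these 5 comparisons were 0.0134%, 0.918%, 0.00895%, 0.0537% in EZ and 0.412% in MZ. At an unadjusted p under 0.05, EZ slopes were below 0 for 11 members and above 0 for 0, MZ slopes were below 0 for 14 and above 0 for 1, and slopes of the zone difference were below 0 for 4 and above 0 for 1. These are 5.47%, 7.46% and 2.49% of the members, against 8.33%, 13% and 6.11% of all tested genes. Each share is lower among the members, whose variation towards the other zone the rule limits. For any age difference the unadjusted numbers were 4 members in EZ (1.99%, against 7.99% of all tested genes) and 7 in MZ (3.48%, against 9.47%). The nearest to a call was EMB3003, a plastid pyruvate dehydrogenase subunit, in MZ. Its MZ values were 26.3 and 18.3 FPKM at day 3, 26.8 and 23.2 at day 4, 20.6 and 23.4 at day 5, 16.2 and 26.6 at day 6, and 8.9 and 10.3 at day 7. Its slope of -0.25 ± 0.06 (SE) log2 units per day had an adjusted p of 0.0782 (limma). Without MZ day 6 replicate 2 its adjusted p was 0.0396 and with no filter on low values 0.0362.

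The slopes of most members in EZ were nevertheless below 0. EZ slopes were negative for 178 of 201 members, with a median of -0.10 log2 units per day, against -0.02 over all tested genes. All members were measured in the same libraries, so these slopes are not independent of each other. The share of negative slopes over all tested genes is not given here. In MZ 137 were negative, with a median of -0.04 per day, against -0.05 over all tested genes. The largest EZ slope in proportion to its error was that of EMB2785, an elongation factor family protein, at -0.30 ± 0.09 per day (SE, limma adjusted p = 0.470). Its EZ values were 39.4 and 47.8 FPKM at day 3 and 17.5 and 14.5 FPKM at day 7, with 36.7 and 16.9 FPKM in the libraries of day 6. By age, the median difference EZ minus MZ of the members was 1.61, 1.17, 1.65, 1.34 and 1.29 log2 units at days 3, 4, 5, 6 and 7, against 0.12, 0.04, 0.17, 0.11 and 0.28 over all tested genes. It was smallest at day 4 for 85 members and largest at day 3 for 85 and at day 5 for 63. The order was not monotone, and the 2 EZ libraries of day 6 lay apart: the members' median was 5.40 in replicate 1 and 4.75 in replicate 2. Ribosome assembly differed most at day 3 (median 2.47) and translation factors lay at 1.54 at day 3 and 1.07 at day 7.

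Members varied less within EZ than tested genes did. The highest over the lowest library was 2.22 at the median of the members in EZ, against 3.28 for the 17124 tested genes with no EZ value of 0. In MZ it was 3.12 for the 186 members with no value of 0, against 3.52 for 16606 tested genes. Of the 186 members, 153 had a larger ratio in MZ than in EZ, and the share over all tested genes is not given here. The members' levels leaned to the upper end, and these ratios were not compared at matched expression. The rule itself limits variation towards the other zone, so this spread is given as a description.

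Genes of the same pathways that were not members were examined in 8 lists of 133 genes, of which 130 were tested. The lists were chosen with earlier results of these data known, which could favour genes higher in EZ. Their counts and p-values in the zone difference are therefore given as a description. Of these, 16 were members (12.3%, against 0.9% of all tested genes), and since the rule chose them by the zone difference they are left out of the counts that follow. Of the other 114, 100 were called higher in EZ and 1 lower, while 20.6% of all tested genes were called higher and 7.77% lower (limma, adjusted p under 0.05). The median difference was 1.30 log2 units over these 114 genes and 0.15 over all tested genes. In rRNA processing and ribosome assembly, where TOZ was the member, 30 of 31 other genes were higher. The nucleolar methylase FIB2 differed by 3.34 ± 0.51 log2 units (SE, limma adjusted p = 0.000444) and the pseudouridine synthase CBF5 by 3.15 ± 0.47 (adjusted p = 0.000366), more than any ribosome assembly member, and neither was a member. Leaving out MZ day 6 replicate 2 put 12 of the 32 in the separated set, against 1 with all libraries. Over all genes the number then rose from 201 to 570.

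In the remaining lists, again without the members, all 11 chaperonin and prefoldin genes were called higher, as were 8 of 9 HSP70, HSP90 and HSP101 genes and 12 of 14 mitochondrial chaperonin, import and prohibitin genes. In replication 12 of 14 were higher, and in chromatin assembly and protein methylation 12 of 12. Nuclear transport had 4 of 8 higher and translation initiation and elongation 11 of 15. ELF5A-1, of the translation list, was the gene called lower, at -0.58 ± 0.14 log2 units (SE, limma adjusted p = 0.00755). Over all 8 lists, 40 genes were separated without MZ day 6 replicate 2, against 16 with it. Over all genes the numbers were 570 and 201, so a rise of this kind was not particular to the lists. Of 298 tested genes described as ribosomal proteins that were not members, 241 were called higher and 5 lower, with a median difference of 1.20 log2 units. Of the 130 list genes, 0 were called for a trend with age in EZ and 1 in MZ, against 0.0134% and 0.918% of all tested genes. The 1 called was the import receptor TOM20-4, with a fall of 0.35 ± 0.07 log2 units per day (SE, limma adjusted p = 0.0317).

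Sequence around the annotated start is another feature the rule did not use. A window from 250 bases before to 50 bases after the annotated start was read for all 201 members and for 22027 tested genes, the members included. The telo box was found in 48 member windows (23.9%), against 5.85% of the windows of all tested genes. Site II was found in 85 member windows (42.3%), against 24.2%. Both were present in 12.4% of member windows and 2.38% of all, and at least 1 of them in 53.7% and 27.7%. In the last 100 bases before the start, the telo box was in 6.47% of member windows and 1.91% of all, and site II in 32.3% and 14.5%.

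The roles differed in these shares. The telo box was in 11 of 24 windows of cytosolic ribosomal proteins (45.8%) and site II in 18 (75.0%). Another 298 tested genes, picked by words in product descriptions and not by role, had shares of 33.6% and 62.4%. Such words also occur for genes of other roles, as for LOS1. In the last 100 bases before the start, the telo box was in 2 of the 24 windows (8.33%), against 11.4% of the 298. Site II was there in 66.7% and 49.0%. The higher telo box share of the role thus held only in the longer window, which includes bases after the start. The 177 members outside that role had 20.9% and 37.9%, still above the 5.85% and 24.2% of all tested genes. Ribosome assembly had the telo box in 5 of 6 windows and translation factors in 6 of 12, against 2 of 24 in primary metabolism and 3 of 22 in chromatin and transcription. The members' levels leaned to the upper end, and these shares were not compared at matched expression, so the part of the level in them was not tested.

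Other motifs were near the share of all windows or were rare. E2F sites (TTTCCCGC or TTTGGCGC) were in 2.49% of member windows and 1.25% of all, but the member share rests on only 5 windows. The core of the mitosis-specific activator element (AACGGNNA) was in 8.96% of member windows and 10.12% of all. TATA boxes (TATAAA or TATATA) were in 63.7% and 63.4%, and the G-box (CACGTG) in 7.96% and 8.29%. The 2 TATA forms can overlap each other. The heat shock element, searched as 3 alternating units, was in 0 of 201 member windows and 0.53% of all. A match is a run of letters and no measured binding site, and windows of divergent neighbours can share bases.

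**Figure D5:**
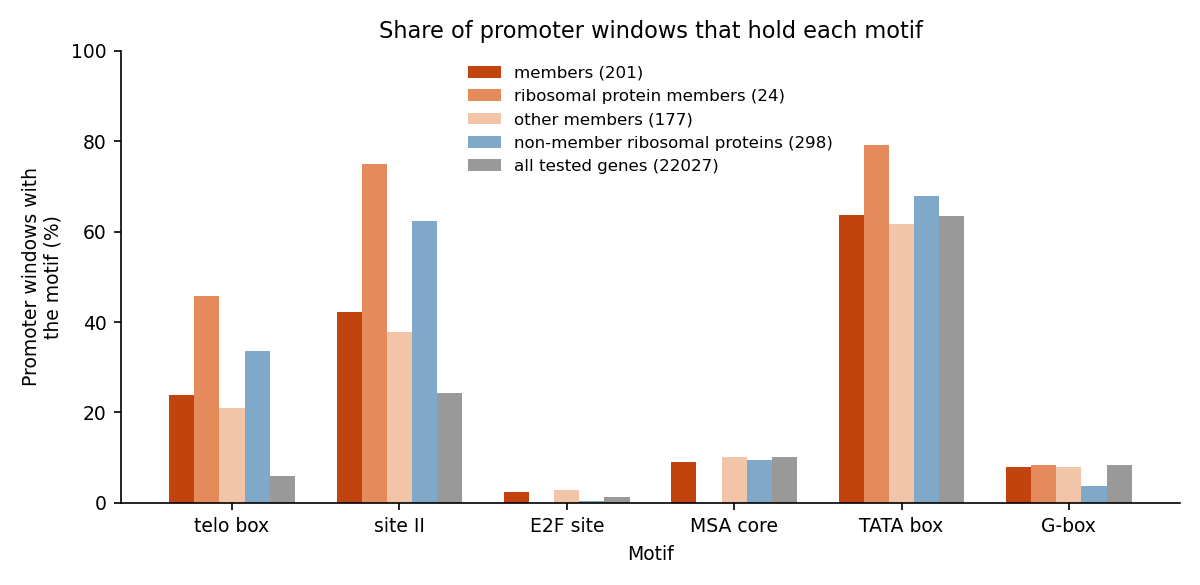
Percent of promoter windows (250 bases before to 50 after the annotated start) that hold each motif at least once, with the number of windows in brackets. Sets are all members, ribosomal protein members, the other members, genes described as ribosomal proteins that are not members, and all tested genes. The telo box is in 23.9% of member windows and 5.85% of all, site II in 42.3% and 24.2%, and the other 4 motifs shown differ by at most 2 percentage points between members and all tested genes.

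Members were ordinary in structure apart from exon number. The 197 protein-coding members had a median of 6 exons, against 4 over 20936 tested protein-coding genes, a median longest transcript of 1758 bases against 1651, and a median GC content of 42.1% against 41.3%. Genes with 1 exon made up 13.7% of these members and 18.9% of the tested genes. They lay on all 5 nuclear chromosomes (58, 28, 29, 35 and 51 members on chromosomes 1 to 5). Only 5 pairs of members were direct neighbours, among them MCM3 and KASI, which lie 349 bases apart on the same strand. Exons of 59 members overlapped another gene, 55 of them on the opposite strand, and for 4 members at least 50% of the exonic length was overlapped: AT1G23410, RABE1b, MRD1 and AT5G44562. Those 4, and AT2G05220 and AT5G46510, share at least 50% of their 32-base words with other transcripts, and their levels are uncertain.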

How the data were processed

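FPKM per gene and library were deposited by the authors in 1 table of 33201 genes and 20 libraries. The submitters' processing notes name the aligner TopHat2 (2.0.13), the assembler Cufflinks (2.1.1) and the build TAIR10, without settings, and no scaling between libraries, filter or strand setting is stated. Per the labels' protocols, RNA of the sorted protoplasts was amplified with a low input kit, and the protocol names no molecular identifiers. The deposited values hold no counts. Depth was recovered from steps between low FPKM values, of which 59.9% to 84.5% per library lay within 0.1 of a whole multiple. The recovered depth is therefore approximate, no count test was run, and for single values the depth is not known exactly. No 2 libraries held identical values.

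Tests took log2(FPKM + 1) of the genes that reached 1 FPKM in 2 libraries or more, which understates differences of low genes. The 10 group means were estimated by limma (3.58.1, under R 4.3.3) using a variance trend and 1 estimate of spread over all 20 libraries. Contrasts were the mean zone difference, the slope per day within each zone, the difference of the slopes, and any age difference within a zone. P-values are two-sided and Benjamini-Hochberg adjusted over all 22335 tested genes, with a threshold of 0.05. The fit was tested on simulated data. Identifiers were matched to the RefSeq annotation of TAIR10.1 (32489 genes, all 201 members), from which positions, descriptions, exons and promoter windows come. Copies were judged by shared 32-base words. Python 3.11.15, pandas 2.3.3 and matplotlib 3.10.9 were used.

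The members, the 8 gene lists and the marker lists were chosen with earlier results of these data known, and roles were assigned from product descriptions after values had been seen. Named members are the 12 with the widest gap between the zones, in each role the 3 with the highest mean in EZ and the 2 with the widest gap, members of the gene lists, and those nearest the boundary. Copies sharing at least 50% of words were left out of ranked picks. Further genes are named where they illustrate a role or family, after their values were seen. Alternatives were other pseudocounts, filters, scalings, library weights, a replicate term and leaving out each library. Some members that this rule would name are not reported here.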

Additional observations from a re-analysis of the deposited data

Results flagged for a closer look

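Among 138 groups of 10 libraries (the named members, the members' median and the summed markers, each within 1 zone), 9 held a library set apart from the others by a larger part of the whole range than Dixon's 95% critical value allows. Chance flags about 1 group in 20. In MZ day 6 replicate 2, 6 members were set apart upward: AT4G18100 at 811.051 FPKM, AT1G67430 at 714.8153 FPKM, HSC70-1 at 971.4962 FPKM, ROC3 at 542.7398 FPKM, RBP47B at 61.8613 FPKM and AtNug2 at 25.1987 FPKM. AT4G31880 was set apart downward in MZ day 6 replicate 1, at 11.6657 FPKM. GLN1.3 was set apart upward in EZ day 3 replicate 1, at 466.252 FPKM. Xylem markers were set apart upward in MZ day 7 replicate 1, with a summed level of 542.077 FPKM.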

How the results depend on the processing

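The number of separated genes, 201 with all libraries, was the value that moved most. It was 202 to 570 on leaving out 1 library, and 4 where the lowest EZ value had to be at least 1.5 times the highest MZ value. The direction of these moves was largely set by the rule: leaving out a library cannot narrow a gap, and a stricter ratio or filter can only lower the number. It was 188 with a filter at 5 FPKM, 201 with no filter, 176 on quantile-normalised values and 178 with median-of-ratios factors. Members called for a trend in MZ numbered 0, but 1 with no filter on low values (EMB3003) and 0 to 2 on leaving out 1 library, with 2 (EMB3003 and AT5G49210) without MZ day 6 replicate 2. In the last 100 bases before the start, motif shares of member windows fell to 6.47% for the telo box and 32.34% for site II, as a shorter window must lower them. The members' median zone difference was 0.98 log2 units with a pseudocount of 5, against 0.08 over all tested genes. Genes of the 8 lists called in the zone difference numbered 117, 16 of them members, and 114 to 118 under the alternatives. With the replicate number as a block, 0 members were called in each age comparison and 117 list genes in the zone difference, as without it. Deviations of same-numbered EZ and MZ libraries from their group means correlated at 0.00956 to 0.347 by age. The replicate numbers were not taken to pair libraries, but these values do not settle whether libraries were paired within an age. The block is 1 term shared by all ages and cannot fit such a pairing. With 2 libraries per zone and age the age tests could miss changes of the members.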
